A study of Mus musculus with 6 samples.

Results

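Translation initiation factors are the proteins that bring an mRNA, the initiator tRNA and the ribosomal subunits together before a protein is made. The genes described here are the protein-coding mouse genes whose symbols begin with *Eif1*, *Eif2*, *Eif3*, *Eif4*, *Eif5* or *Eif6*. Of 55 such genes, 6 were left out because they encode kinases of the eIF2 alpha subunit or the sex-linked copies of its gamma subunit. The remaining 49 of the 56748 genes in the deposited count table were grouped by factor number, with the repressors of the *Eif4ebp* family kept apart.

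The libraries came from polyA RNA of unsorted CD4 T cells of wild-type (WT) C57BL/6 mice, taken at 6 to 10 weeks of age according to the methods. Naive CD4 cells, isolated from spleen and lymph nodes according to the methods while the labels name splenocytes alone, were held for 3 days in a culture that favours regulatory T cells (Tregs), CD4 cells marked by the transcription factor Foxp3. In 3 cultures the medium contained a scrambled antisense oligonucleotide (ASO) at 10 μM, and in 3 it contained an ASO directed at *Pgam*, the gene name of a glycolytic enzyme, at the same dose. Replicates are numbered 1 to 3 in each group and are described as biological replicates, without word on whether they are separate animals, so the p-values measure only the spread between these libraries. Values for several libraries are listed in the order of replicates 1, 2 and 3. Kallisto's estimated counts summed to 17588755, 18032805 and 16231127 in the scrambled ASO libraries and to 16589933, 15860476 and 16803881 in the *Pgam* ASO libraries. Levels are TMM-normalized CPM, counts scaled to the size of the library, and a fold change, given with its standard error (SE), is that of the *Pgam* ASO libraries over the scrambled ASO libraries on the log2 scale, also where a gene is said to have risen by a value. A gene was called higher or lower at an adjusted p under 0.05 from the quasi-likelihood method of edgeR, adjusted over all 14936 genes tested.

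Initiation begins when the eIF4F complex binds the cap of an mRNA and unwinds its leader, while eIF2 carries the initiator tRNA to a small ribosomal subunit that eIF3, eIF1 and eIF1A hold ready. After the start codon is found, eIF5 and eIF5B drive the release of eIF2 and the joining of the large subunit, and eIF2B recharges eIF2 with GTP. A resting T cell makes little protein, and activation through the antigen receptor raises both the rate of translation and the supply of its factors.

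The genes named on the ASO label were examined first. *Pgam1* (ENSMUSG00000011752, chromosome 19 from 41911923 to 41918660 in GRCm38), which encodes the main form of the enzyme, measured 599.6, 478 and 707 CPM in the scrambled ASO libraries and 658, 661 and 707 CPM in the *Pgam* ASO libraries. The groups overlapped, and the log2 fold change was 0.18 (SE 0.13, adjusted p = 0.331 by edgeR). *Pgam2* (ENSMUSG00000020475, chromosome 11 from 5801640 to 5803733), the muscle form, had 93, 125 and 46 counts against 48, 42 and 44. Its lowest scrambled ASO library, replicate 3, lay inside the range of the *Pgam* ASO libraries, and the log2 fold change was -0.84 (SE 0.31, adjusted p = 0.0854 by edgeR). Without scrambled ASO replicate 3, *Pgam2* stood at -1.11 on the log2 scale, with an adjusted p of 0.0144, and without scrambled ASO replicate 2 it stood at -0.56 (adjusted p = 0.286). With every gene of at least 1 count tested, it stood at -0.83 with an adjusted p of 0.0292. *Pgam1* moved between 0.05 without scrambled ASO replicate 2 and 0.33 without scrambled ASO replicate 3 (adjusted p = 0.0528). These are mRNA levels, the files hold no protein values, and the groups are named here by their labels.

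*Foxp3* measured 282, 371 and 222 CPM in the scrambled ASO libraries and 89.7, 109 and 131 CPM in the *Pgam* ASO libraries. Every *Pgam* ASO library was below every scrambled ASO library, and *Foxp3* fell with a log2 fold change of -1.41 (SE 0.20, adjusted p = 0.00567 by edgeR). The 8 CD4 T cell markers were all tested and summed to 3156, 3309 and 3006 CPM against 2706, 2743 and 2830.0 CPM. *Cd4* was the most abundant of them, and *Trac* and *Cd5* were called lower. All 6 Treg markers were tested as well, and *Il2ra*, the most abundant, was called higher at 0.52 on the log2 scale, while *Foxp3* and *Ikzf2* were called lower. Summed Treg marker levels were 3353, 3153 and 3694 CPM in the scrambled ASO libraries and 4059, 4084 and 3674 CPM in the *Pgam* ASO libraries. Without *Il2ra*, the other 5 summed to 1407, 1526 and 1479 CPM against 1151, 1183 and 1179 CPM, lower in every *Pgam* ASO library. In bulk RNA of unsorted cells, a change in the number of cells of a type and a change in RNA per cell cannot be told apart.

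Of the 49 members, 48 passed the filter on low counts. *Eif4e1b*, an eIF4E relative best known from oocytes, had 0 counts in every library, where 3 counts correspond to between 0.162 and 0.192 CPM. Among the 48 tested, 16 were called higher in the *Pgam* ASO libraries, which is 33.3% of them, beside 8.03% of all tested genes. None was called lower by edgeR, beside 9.15% of all tested genes, although *Eif4e3* had an unadjusted p under 0.05 in that direction. DESeq2 called 20 members higher, beside 10.3% of all genes, and called *Eif4e3* lower, beside 11.1%. limma-voom called 15 members higher, beside 7.99% of all genes, and 0 lower, with 1 at an unadjusted p under 0.05, beside 8.94%. The median log2 fold change was 0.30 over tested members and -0.01 over all tested genes. It was above 0 for 40 members and below 0 for 8. The groups did not overlap for 28 members, of which 26 were higher in every *Pgam* ASO library, beside 19.6% of all genes, and 2, *Eif3h* and *Eif4e3*, were lower in each, beside 19.8%.

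**Figure D1:**
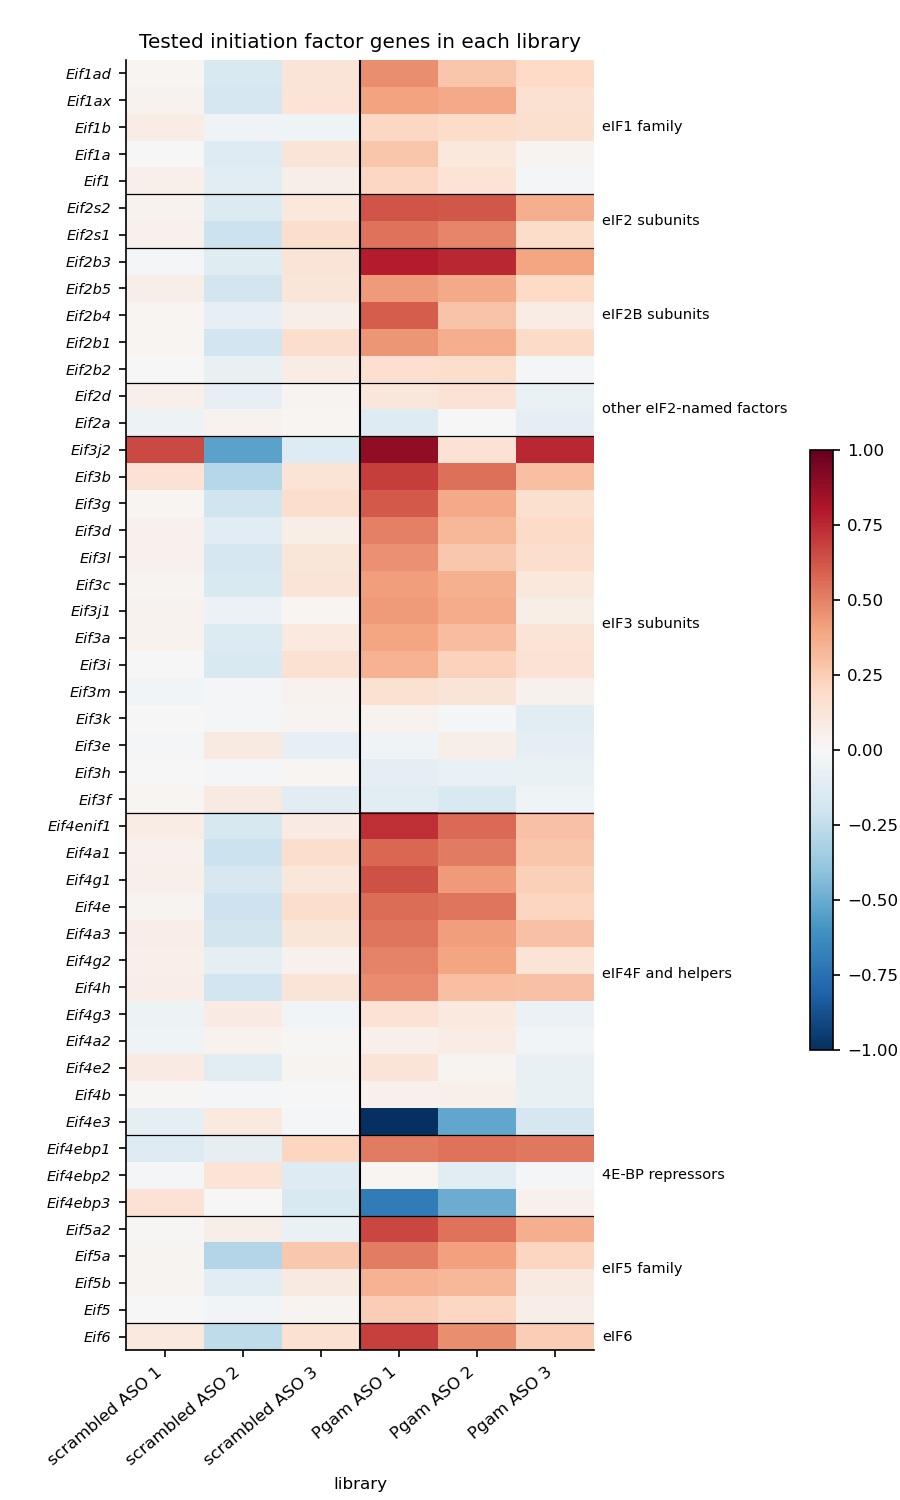
Each line of the heat map is 1 of 48 tested members and each column 1 library, and colour shows log2(CPM + 0.5) minus the mean of the scrambled ASO libraries, with the scale ending at -1 and 1. The columns of *Pgam* ASO replicates 1 and 2 are the reddest, and scrambled ASO replicate 2 is the bluest of its group for most genes.

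Libraries within a group differed in step across the members. Scrambled ASO replicate 2 was the lowest of its group for 36 of 48 members, and *Pgam* ASO replicate 3 was the lowest of its group for 40 of 48. Over all tested genes the same libraries were lowest for 40.6% and 37.9%. Against the mean of the scrambled ASO libraries, the median member stood at 0.03, -0.11 and 0.08 on the log2 scale in the scrambled ASO libraries and at 0.42, 0.29 and 0.14 in the *Pgam* ASO libraries. *Pgam* ASO replicate 3 was therefore the nearest of its group to the scrambled ASO libraries. *Foxp3* stood the other way round in these libraries, with the highest level of its group in *Pgam* ASO replicate 3 and in scrambled ASO replicate 2.

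The number of members called depended on which library was left out, and so did the number over all genes. Without scrambled ASO replicate 1, edgeR called 1 member higher, *Eif2s2*, beside 1.45% of all genes. Without scrambled ASO replicate 2 it called 5, namely *Eif2s2*, *Eif2b3*, *Eif4ebp1*, *Eif4enif1* and *Eif5a2*, beside 3.25%. Leaving out *Pgam* ASO replicate 1 gave 3, *Eif2s2*, *Eif2b3* and *Eif4ebp1*, beside 2.10%. Leaving out *Pgam* ASO replicate 2 gave 0 by edgeR, with 21 at an unadjusted p under 0.05, beside 1.03% of all genes called. The counts were larger without scrambled ASO replicate 3, with 25 members beside 11.0%, and without *Pgam* ASO replicate 3, with 26 members beside 10.2%. All 16 members called with 6 libraries were also called in these last fits. The median over members was between 0.23 and 0.38 in the fits with a library left out.

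**Figure D2:**
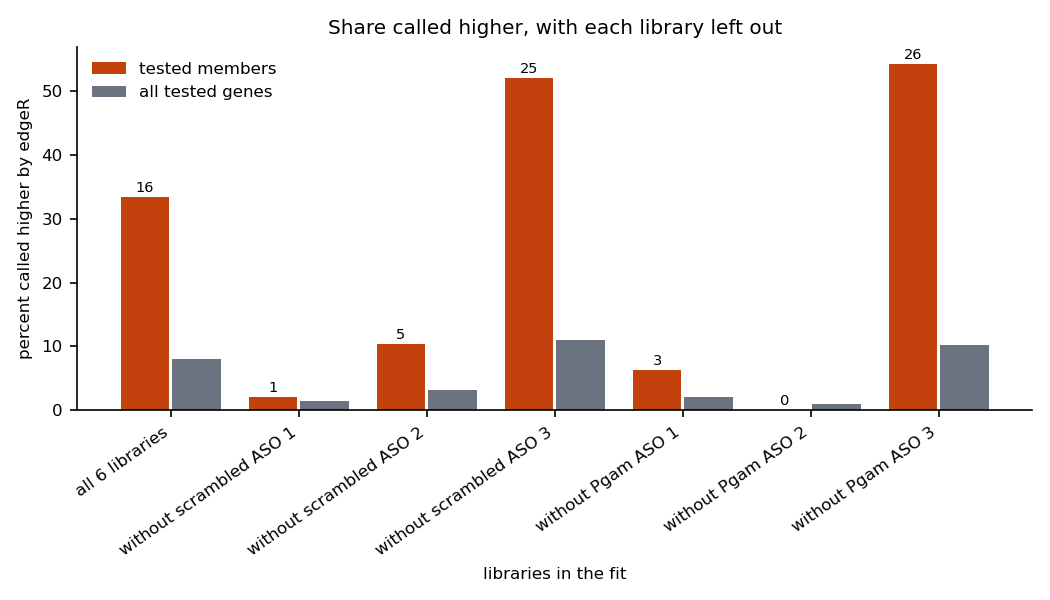
Bars show the percent of tested members and of all tested genes that edgeR called higher, for the fit on all 6 libraries and for each fit with a library left out, with the number of members above each member bar. The share of members was above that of all genes in every fit except the fit without *Pgam* ASO replicate 2, where 0 members were called.

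The eIF4F complex and its helpers held 7 of the 16 called members, among 12 tested of 13, which is 58.3% beside 8.03% of all tested genes. Summed, this group measured 4788, 4351 and 4946 CPM in the scrambled ASO libraries and 6263, 5872 and 5174 CPM in the *Pgam* ASO libraries, with no overlap. *Eif4e* (ENSMUSG00000028156, chromosome 3 from 138526179 to 138559696) encodes the protein that binds the mRNA cap. It measured 137, 117 and 153 CPM against 199, 196 and 157 CPM. The gap between scrambled ASO replicate 3 and *Pgam* ASO replicate 3 was small, although the groups stayed apart. *Eif4e* rose by 0.44 (SE 0.12, adjusted p = 0.0361 by edgeR) on the log2 scale. *Eif4g1* (ENSMUSG00000045983, chromosome 16 from 20668313 to 20692884), the scaffold that joins the cap-binding protein to eIF3, measured 732, 629.6 and 762 CPM against 1099, 945 and 833 CPM. All *Pgam* ASO libraries exceeded all scrambled ASO libraries, and *Eif4g1* rose by 0.44 (SE 0.11, adjusted p = 0.03 by edgeR). *Eif4a1* (ENSMUSG00000059796, chromosome 11 from 69666936 to 69672423), the helicase that unwinds the leader, had 822, 687 and 900.1 CPM and 1191, 1144 and 965 CPM. Its highest values were in *Pgam* ASO replicates 1 and 2, without overlap, and it rose by 0.45 (SE 0.12, adjusted p = 0.0282 by edgeR). For these 3 genes the call ended in each fit that left out scrambled ASO replicate 1 or 2 or *Pgam* ASO replicate 1 or 2, with adjusted p-values between 0.052 and 0.149.

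Promoter windows of members were searched for motifs, and a few windows, chosen after the test results were seen, are printed below. RefSeq windows of GRCm38.p6, from 250 bases before to 50 bases after a transcript start, were available for 37 of 49 members, as 49 windows. They were searched on both strands for CACGTG, the palindromic E-box that reads the same on either strand and is bound by MYC and related factors, and for TGATGNAAN, the core of the element bound by ATF4 with C/EBP proteins. The letters CACGTG were in 12 of the 49 windows, 24.5%, beside 2349 of 32851 windows of all genes, 7.15%. *Eif5a*, which was not called, holds several of the matching windows. Counted by gene, CACGTG was in a window of 10 of 37 members, beside 2187 of 27025 genes. These 27025 include genes that were not tested here, and the share among tested genes is not given. The members with a match were 5 of the 12 called and 5 of the 25 not called that have a window. The 7 called members with no match in any window are *Eif2b5*, *Eif2s1*, *Eif2s2*, *Eif3b*, *Eif3d*, *Eif4a3* and *Eif4enif1*. None of these 7 is printed below, so the printed windows do not represent the called members. TGATGNAAN was in 0 of the 49 windows, beside 1299 of all windows, 3.95%. The called members *Eif2b3*, *Eif4ebp1*, *Eif4g2* and *Eif6* have no window, so neither motif was searched for in them. *Eif4e* is shown by the second of its 2 windows (chr3:138527018-138527317, plus strand), with matches beginning 228 and 64 bases before the start, and its first window has no match. *Eif4a1* (chr11:69672374-69672673, minus strand) has a match 189 bases before the start, and *Eif4g1* (chr16:20672477-20672776, plus strand) has matches 54 bases before the start and at base 16 after it. *Eif4h* (chr5:134639360-134639659, minus strand) has a match 96 bases before the start. Of members not called, *Eif4a2* (chr16:23107218-23107517, plus strand) has no match, and *Eif3f* (chr7:108934165-108934464, plus strand) has a match 68 bases before the start. Capitals mark CACGTG, and a match describes letters in a window and was not tested as a binding site.
Eif4e: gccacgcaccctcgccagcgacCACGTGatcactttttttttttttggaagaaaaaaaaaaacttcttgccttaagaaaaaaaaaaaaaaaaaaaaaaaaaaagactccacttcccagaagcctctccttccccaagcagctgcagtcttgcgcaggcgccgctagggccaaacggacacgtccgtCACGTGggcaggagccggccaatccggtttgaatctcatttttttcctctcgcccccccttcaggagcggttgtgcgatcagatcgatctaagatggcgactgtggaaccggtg
Eif4a1: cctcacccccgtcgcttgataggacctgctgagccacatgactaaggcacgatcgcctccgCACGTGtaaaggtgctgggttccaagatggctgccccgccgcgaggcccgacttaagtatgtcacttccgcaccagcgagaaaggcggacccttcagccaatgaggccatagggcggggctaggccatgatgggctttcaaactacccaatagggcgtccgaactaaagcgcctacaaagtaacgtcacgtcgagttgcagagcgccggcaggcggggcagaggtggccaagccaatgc
Eif4g1: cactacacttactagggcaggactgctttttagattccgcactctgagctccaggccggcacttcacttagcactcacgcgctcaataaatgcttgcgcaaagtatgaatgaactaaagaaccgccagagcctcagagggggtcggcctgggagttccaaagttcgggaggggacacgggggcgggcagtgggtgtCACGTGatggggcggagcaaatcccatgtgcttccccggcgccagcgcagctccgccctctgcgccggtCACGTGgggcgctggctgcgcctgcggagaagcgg
Eif4h: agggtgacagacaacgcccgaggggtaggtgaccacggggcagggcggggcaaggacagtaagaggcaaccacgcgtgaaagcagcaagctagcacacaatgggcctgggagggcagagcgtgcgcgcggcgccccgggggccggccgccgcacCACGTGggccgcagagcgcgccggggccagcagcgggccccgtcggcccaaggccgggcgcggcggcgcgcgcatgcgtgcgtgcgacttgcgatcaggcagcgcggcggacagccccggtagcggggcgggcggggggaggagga
Eif4a2: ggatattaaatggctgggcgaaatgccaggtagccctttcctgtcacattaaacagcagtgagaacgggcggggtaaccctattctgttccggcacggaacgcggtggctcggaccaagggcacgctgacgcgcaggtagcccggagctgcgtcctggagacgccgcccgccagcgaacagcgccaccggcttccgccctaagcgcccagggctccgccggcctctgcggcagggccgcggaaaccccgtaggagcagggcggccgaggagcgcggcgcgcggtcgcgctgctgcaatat
Eif3f: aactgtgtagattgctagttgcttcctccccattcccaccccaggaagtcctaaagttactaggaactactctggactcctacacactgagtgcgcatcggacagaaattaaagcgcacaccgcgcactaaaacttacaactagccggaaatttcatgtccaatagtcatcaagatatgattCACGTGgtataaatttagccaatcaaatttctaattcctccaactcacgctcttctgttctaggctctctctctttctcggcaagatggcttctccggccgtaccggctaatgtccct

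Helicases and their cofactors gave mixed results in the test. *Eif4a2* encodes a helicase close in sequence to that of *Eif4a1*, and it measured 450.5, 473 and 466 CPM in the scrambled ASO libraries and 479.8, 488 and 453 CPM in the *Pgam* ASO libraries. These ranges overlapped, and its log2 fold change was 0.03 (SE 0.08, adjusted p = 0.795 by edgeR). *Eif4a3*, whose protein sits in the exon junction complex left by splicing, had 149, 125 and 155 CPM and 207, 190.0 and 174 CPM. Each *Pgam* ASO library was above each scrambled ASO library, and *Eif4a3* rose by 0.41 (SE 0.10, adjusted p = 0.0266 by edgeR). *Eif4b* and *Eif4h* encode proteins that stimulate the helicase. *Eif4b* stayed within a narrow range, with 679.5, 663 and 677 CPM and 695, 696 and 638 CPM, overlapping groups and a log2 fold change of 0.01 (SE 0.08, adjusted p = 0.96 by edgeR). *Eif4h* measured 397, 331 and 415 CPM against 525, 466 and 463 CPM, did not overlap between groups, and rose by 0.35 (SE 0.10, adjusted p = 0.0427 by edgeR).

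The scaffold and the cap-binding protein have relatives and partners of their own. *Eif4g2* encodes a scaffold that lacks the binding site for the cap-binding protein, and it measured 881, 798 and 877 CPM and 1202, 1119 and 936 CPM. *Pgam* ASO replicate 3 was the lowest of its group and still above every scrambled ASO library, and *Eif4g2* rose by 0.35 (SE 0.10, adjusted p = 0.0416 by edgeR). The closer paralog of *Eif4g1*, *Eif4g3*, had overlapping groups and a log2 fold change of 0.06 (SE 0.09, adjusted p = 0.648 by edgeR). *Eif4enif1* encodes a transporter of eIF4E that also gathers it in processing bodies, and it had 171, 145 and 172 CPM against 269, 241 and 199 CPM. The groups were apart, and *Eif4enif1* rose by 0.54 (SE 0.12, adjusted p = 0.018 by edgeR), with the call ending without scrambled ASO replicate 1 (adjusted p = 0.0603), *Pgam* ASO replicate 1 (adjusted p = 0.062) and *Pgam* ASO replicate 2 (adjusted p = 0.0912). *Eif4a3*, *Eif4h* and *Eif4g2* were called without scrambled ASO replicate 3 or *Pgam* ASO replicate 3, and in the other fits with a library left out their adjusted p ran from 0.0535 to 0.158. *Eif4e2*, a cap-binding relative that represses rather than drives translation, overlapped between groups with a log2 fold change of 0.03 (SE 0.09, adjusted p = 0.861 by edgeR).

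*Eif4e3*, another cap-binding relative, was the only member with the opposite direction at an unadjusted p under 0.05, and it was named after its values were seen. It had 21.6, 24.5 and 22.7 CPM in the scrambled ASO libraries and 10.9, 15.8 and 20.4 CPM in the *Pgam* ASO libraries. The groups were apart by a narrow margin at *Pgam* ASO replicate 3. Its log2 fold change was -0.54 (SE 0.19, adjusted p = 0.0766 by edgeR), and among the fits with a library left out it passed only without *Pgam* ASO replicate 3, at -0.77 with an adjusted p of 0.0151. Without *Pgam* ASO replicate 1 it was -0.34 with an adjusted p of 0.185. DESeq2 gave an adjusted p of 0.0453.

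**Figure D3:**
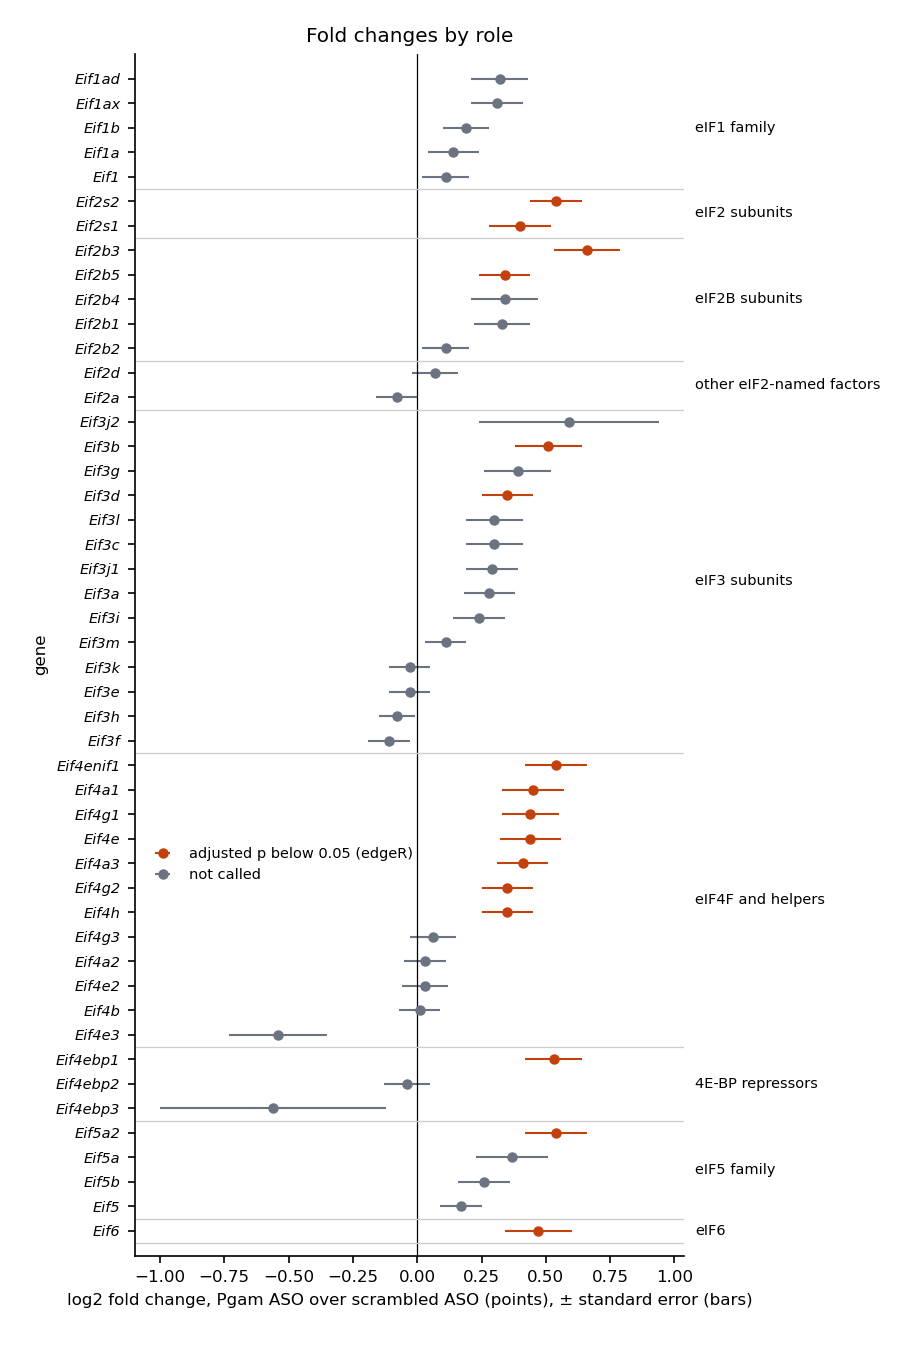
Points are edgeR log2 fold changes of the 48 tested members, *Pgam* ASO over scrambled ASO, with bars of 1 standard error, grouped by role and coloured by whether the gene was called. Called genes lie between 0.34 (*Eif2b5*) and 0.66 (*Eif2b3*), and the lowest point among the eIF4F genes is *Eif4e3* at -0.54.

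The repressors of the *Eif4ebp* family bind the cap-binding protein and keep it from the scaffold until mTORC1 phosphorylates them. *Eif4ebp1* (ENSMUSG00000031490, chromosome 8 from 27260329 to 27276674) measured 41.0, 42.1 and 52.0 CPM against 64.3, 65.4 and 64.9 CPM. Its *Pgam* ASO libraries were close to each other and all above the scrambled ASO libraries, of which replicate 3 was the highest. *Eif4ebp1* rose by 0.53 (SE 0.11, adjusted p = 0.0126 by edgeR), and among the fits with a library left out its call ended only without scrambled ASO replicate 1 (adjusted p = 0.0655) and without *Pgam* ASO replicate 2 (adjusted p = 0.0734). *Eif4ebp2*, which encodes a related repressor, had 278, 309.6 and 257 CPM and 285, 259 and 278 CPM. Its groups overlapped, with a log2 fold change of -0.04 (SE 0.09, adjusted p = 0.784 by edgeR). *Eif4ebp3* had few counts, at 1.18, 1.03 and 0.867 CPM and 0.435, 0.577 and 1.07 CPM, with a log2 fold change of -0.56 (SE 0.44, adjusted p = 0.397 by edgeR).

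Ratios of paired members were formed within each library, so that scaling between libraries cancels, and compared by an exact two-sided permutation test whose smallest p with 3 libraries against 3 is 0.1. The log2 ratio of *Eif4a1* to *Eif4a2* was 0.87, 0.54 and 0.95 in the scrambled ASO libraries and 1.31, 1.23 and 1.09 in the *Pgam* ASO libraries. The helicase balance was thus higher in every *Pgam* ASO library, by a mean of 0.43. The ratio of *Eif4g1* to *Eif4g3* differed by 0.37, that of *Eif4e* to *Eif4e2* by 0.41, that of *Eif4ebp1* to *Eif4ebp2* by 0.57 and that of *Eif3b* to *Eif3e* by 0.54. These 5 ratios did not overlap between groups, and each had the smallest exact p the design allows, 0.1, or 0.16 adjusted over the 8 pairs. In each of the 5 the first gene was called higher by edgeR and the second was not called. These ratios therefore repeat those results and are no separate evidence. How often pairs of other genes are apart between groups was not computed. The difference in *Eif3b* over *Eif3e* was 0.35 without scrambled ASO replicate 2. *Eif4e* over its repressor *Eif4ebp1* was 1.73, 1.47 and 1.54 and 1.62, 1.58 and 1.27, with overlapping groups, a difference of -0.09 and an exact p of 0.7. Without *Pgam* ASO replicate 3 that difference was 0.02, and without *Pgam* ASO replicate 1 it was -0.16. *Eif5a* over *Eif5a2* differed by -0.14 (exact p = 0.7), or 0.02 without scrambled ASO replicate 3 and -0.32 (exact p = 0.1) without scrambled ASO replicate 2, and *Eif2b1* over *Eif2s1* differed by -0.07 (exact p = 0.3), both with overlapping groups. The latter was -0.11 (exact p = 0.1) without *Pgam* ASO replicate 3 and -0.04 without *Pgam* ASO replicate 2.

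**Figure D4:**
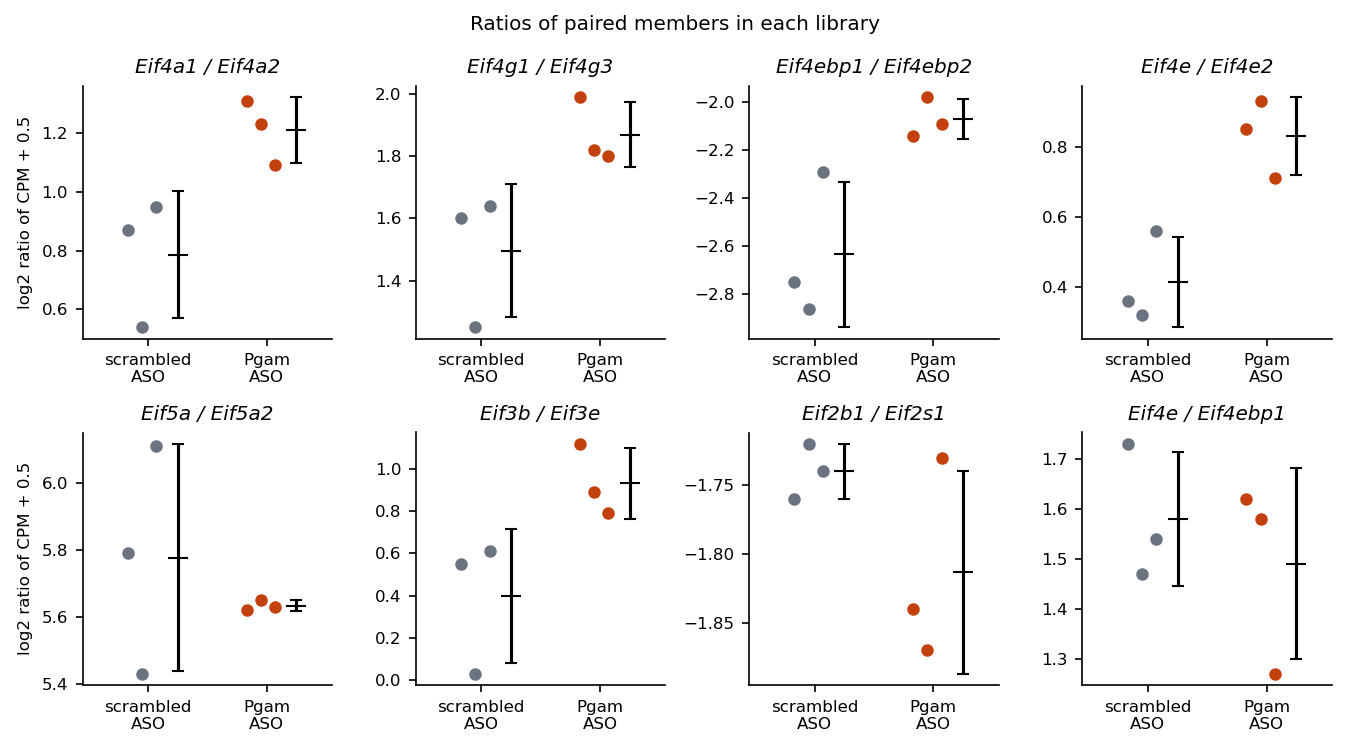
Each panel shows the log2 ratio of CPM + 0.5 for a pair of members, with 1 point per library and the mean ± SD of 3 libraries beside it. The groups are apart in 5 panels and overlap for *Eif5a* over *Eif5a2*, *Eif2b1* over *Eif2s1* and *Eif4e* over *Eif4ebp1*.

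Both autosomal subunits of eIF2 were called higher, beside 8.03% of all tested genes. *Eif2s2* (ENSMUSG00000074656, chromosome 2 from 154871410 to 154892935) encodes the beta subunit and had the lowest adjusted p of the members. It measured 200.4, 177 and 209.7 CPM in the scrambled ASO libraries and 303, 300.0 and 252 CPM in the *Pgam* ASO libraries. The highest scrambled ASO library was well below the lowest *Pgam* ASO library, and *Eif2s2* rose by 0.54 (SE 0.10, adjusted p = 0.0101 by edgeR). Among the fits with a library left out, its call ended only without *Pgam* ASO replicate 2 (adjusted p = 0.0704). *Eif2s1* encodes the alpha subunit, the target of the stress kinases that lower initiation. It had 176, 147 and 193 CPM against 249, 239.8 and 194 CPM. Scrambled ASO replicate 3 and *Pgam* ASO replicate 3 almost met, and *Eif2s1* rose by 0.40 (SE 0.12, adjusted p = 0.0489 by edgeR), the highest adjusted p among the calls. That call was lost in the fits without scrambled ASO replicate 1 (adjusted p = 0.126) or 2 (0.115) and without *Pgam* ASO replicate 1 (0.157) or 2 (0.177).

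The exchange factor eIF2B has 5 subunits, all tested and all with a log2 fold change above 0, of which 2 were called higher, beside 8.03% of all tested genes. *Eif2b3* (ENSMUSG00000028683, chromosome 4 from 117019402 to 117087306), the gamma subunit, had the largest fold change of any called member. It measured 21.7, 20.1 and 23.9 CPM and 37.9, 37.1 and 28.8 CPM. *Pgam* ASO replicates 1 and 2 stood well above the rest, the groups did not overlap, and *Eif2b3* rose by 0.66 (SE 0.13, adjusted p = 0.0123 by edgeR). Without scrambled ASO replicate 1 its adjusted p was 0.0572, and without *Pgam* ASO replicate 2 it was 0.0784. *Eif2b5* encodes the catalytic epsilon subunit and had 88.0, 74.3 and 91.6 CPM against 113, 109.8 and 97.0 CPM. Its groups were apart and it rose by 0.34 (SE 0.10, adjusted p = 0.0487 by edgeR). This call sat close to the threshold, with an adjusted p of 0.0505 in limma-voom and 0.0519 with library size alone, and between 0.117 and 0.169 without scrambled ASO replicate 1 or 2 or *Pgam* ASO replicate 1 or 2. *Eif2b1*, the alpha subunit, measured 51.5, 44.3 and 57.3 CPM and 69.2, 65.3 and 58.0 CPM, with groups apart and a log2 fold change of 0.33 (SE 0.11, adjusted p = 0.0669 by edgeR). It passed without scrambled ASO replicate 3 (adjusted p = 0.0291) and without *Pgam* ASO replicate 3 (0.0426), and in no other fit with a library left out. *Eif2b4* and *Eif2b2* had log2 fold changes of 0.34 and 0.11 and were not called. *Eif2a* and *Eif2d*, which share the name but are not part of eIF2, overlapped between groups, with log2 fold changes of -0.08 and 0.07.

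The eIF3 complex, the largest of the factors, is encoded by 14 members here, of which 2 were called higher, 14.3%, beside 8.03% of all tested genes, and 0 lower, beside 9.15%. The median of the 14 was 0.29, with 10 above 0 and 4 below. *Eif3b*, a core subunit, measured 414, 307 and 411 CPM in the scrambled ASO libraries and 604, 546 and 460.4 CPM in the *Pgam* ASO libraries. Scrambled ASO replicate 2 was far below the others of its group, the groups did not overlap, and *Eif3b* rose by 0.51 (SE 0.13, adjusted p = 0.0312 by edgeR). *Eif3d*, a subunit that can itself bind the cap of some mRNAs, had 147, 132 and 149.9 CPM against 203, 180.1 and 163 CPM. The groups were apart and *Eif3d* rose by 0.35 (SE 0.10, adjusted p = 0.0401 by edgeR). Both calls ended without scrambled ASO replicate 1 or 2 or *Pgam* ASO replicate 1 or 2, with adjusted p-values from 0.0531 to 0.139. *Eif3a*, the largest subunit, measured 593, 525 and 619.7 CPM and 759, 715 and 635 CPM. It too was higher in each *Pgam* ASO library, and its log2 fold change was 0.28 (SE 0.10, adjusted p = 0.0697 by edgeR), with adjusted p-values of 0.044 without scrambled ASO replicate 3 and 0.0379 without *Pgam* ASO replicate 3, and above 0.05 without any other library. *Eif3c*, *Eif3g*, *Eif3i*, *Eif3j1* and *Eif3l* had log2 fold changes from 0.24 to 0.39 and were not called.

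TOP mRNAs are messages whose translation is controlled through a pyrimidine tract at their start. The 4 members listed here as TOP mRNAs are *Eif3e*, *Eif3f*, *Eif3h* and *Eif4b*, a list that may not be complete. None of the 4 was called by edgeR or DESeq2, with 0 at an unadjusted p under 0.05, where edgeR called 8.03% of all tested genes higher and 9.15% lower. Their median log2 fold change was -0.05, beside 0.31 for the other tested members, and the difference between these medians was not tested. Together they measured 1774, 1797 and 1729 CPM and 1724, 1739.8 and 1681 CPM. *Eif3e* had 282, 302 and 269 CPM against 277, 295 and 265 CPM, with overlapping groups and a log2 fold change of -0.03 (SE 0.08, adjusted p = 0.858 by edgeR). *Eif3h* was lower in every *Pgam* ASO library, with a log2 fold change of -0.08 (adjusted p = 0.485 by edgeR), and *Eif3f* overlapped with a log2 fold change of -0.11 (adjusted p = 0.402 by edgeR). The eIF3 subunit genes *Eif3k* and *Eif3m* stood at -0.03 and 0.11. *Eif3j2*, a copy of *Eif3j1*, varied between 2.54 and 7.64 CPM and was not called.

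The 5 genes of the eIF1 family all had log2 fold changes above 0, from 0.11 to 0.32, and 0 were called by edgeR, beside 8.03% of all tested genes higher and 9.15% lower, with 2 at an unadjusted p under 0.05, *Eif1ad* and *Eif1ax*. DESeq2 called *Eif1ax*, with an adjusted p of 0.0477. *Eif1* encodes a guard of start codon choice and measured 307, 275 and 309 CPM in the scrambled ASO libraries and 343, 326 and 294 CPM in the *Pgam* ASO libraries. The groups overlapped because *Pgam* ASO replicate 3 fell among the scrambled ASO libraries, and the log2 fold change was 0.11 (SE 0.09, adjusted p = 0.415 by edgeR). *Eif1ax* encodes eIF1A, which works beside eIF1 on the small subunit, and had 122, 106 and 130.4 CPM against 158, 154 and 132 CPM. Its groups were apart by a small margin, with a log2 fold change of 0.31 (SE 0.10, adjusted p = 0.0635 by edgeR). The adjusted p of *Eif1ax* was 0.0316 without *Pgam* ASO replicate 3 and 0.0355 without scrambled ASO replicate 3, and above 0.05 without any other library. *Eif1a* and *Eif1b*, relatives of these genes, had log2 fold changes of 0.14 and 0.19.

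Late steps of initiation and elongation are served by the eIF5 family and eIF6. *Eif5*, which makes eIF2 hydrolyse its GTP at the start codon, measured 343, 336 and 349 CPM and 407, 396 and 357 CPM. Though apart between groups, it was not called, with a log2 fold change of 0.17 (SE 0.08, adjusted p = 0.157 by edgeR). *Eif5b*, the GTPase for subunit joining, had 181, 164 and 189.8 CPM against 227, 224 and 189 CPM. *Pgam* ASO replicate 3 lay within the scrambled ASO range, and the log2 fold change was 0.26 (SE 0.10, adjusted p = 0.0911 by edgeR), with an adjusted p of 0.0345 without that library and above 0.05 without any other. *Eif5a*, the hypusine-bearing factor that helps ribosomes past difficult stretches, measured 1117, 894 and 1322 CPM and 1562, 1460.5 and 1274 CPM. Scrambled ASO replicate 3 exceeded *Pgam* ASO replicate 3, so the groups overlapped, and the log2 fold change was 0.37 (SE 0.14, adjusted p = 0.0864 by edgeR), passing only without scrambled ASO replicate 3 (adjusted p = 0.0169) among the fits with a library left out. Without scrambled ASO replicate 2 *Eif5a* stood at 0.23 (adjusted p = 0.187). Its paralog *Eif5a2* measured 19.6, 20.3 and 18.6 CPM against 31.2, 28.7 and 25.2 CPM. The groups were apart, and *Eif5a2* rose by 0.54 (SE 0.12, adjusted p = 0.0164 by edgeR). The *Eif5a2* call ended without scrambled ASO replicate 1 (adjusted p = 0.0702) and without *Pgam* ASO replicate 1 (0.0597) or 2 (0.087).

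*Eif6* keeps the large ribosomal subunit from joining too early and also serves its assembly. It measured 85.5, 67.1 and 89.2 CPM in the scrambled ASO libraries and 129, 110.4 and 95.1 CPM in the *Pgam* ASO libraries. The groups were apart, with scrambled ASO replicate 2 and *Pgam* ASO replicate 1 at the ends, and *Eif6* rose by 0.47 (SE 0.13, adjusted p = 0.0401 by edgeR). Its call was lost without scrambled ASO replicate 1 or 2 or *Pgam* ASO replicate 1 or 2, with adjusted p-values from 0.0923 to 0.137.

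Levels of different genes were compared per kilobase of transcript, using the mean length of each gene's protein-coding transcripts. In the scrambled ASO libraries *Eif5a* had the highest level, 981 ± 189 CPM per kb (SD, n = 3), followed by *Eif4a1* with 453 ± 60.8 CPM per kb. Both exceeded the next gene in every scrambled ASO library, and both were also first and second in the *Pgam* ASO libraries, at 1264 ± 129 and 620.3 ± 67.3 CPM per kb. *Eif4g2* followed at 365 ± 20.1 CPM per kb, a place that depends on length, since it was 18th when the longest transcript was used. *Eif4e* was at 79.6 ± 10.5 CPM per kb, below *Eif4a1* and below *Eif4g1* (243 ± 23.8 CPM per kb). With the longest transcript, *Eif4e* was at 27.2, *Eif4g1* at 125.5 and *Eif4ebp2* at 48.7 CPM per kb. Among the repressors, *Eif4ebp2* stood at 78.2 ± 7.31 and *Eif4ebp1* at 22.6 ± 3.05 CPM per kb. The lowest levels of detected members were those of *Eif3j2* (1.76 ± 0.860 CPM per kb) and *Eif4ebp3* (1.38 ± 0.211 CPM per kb).

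**Figure D5:**
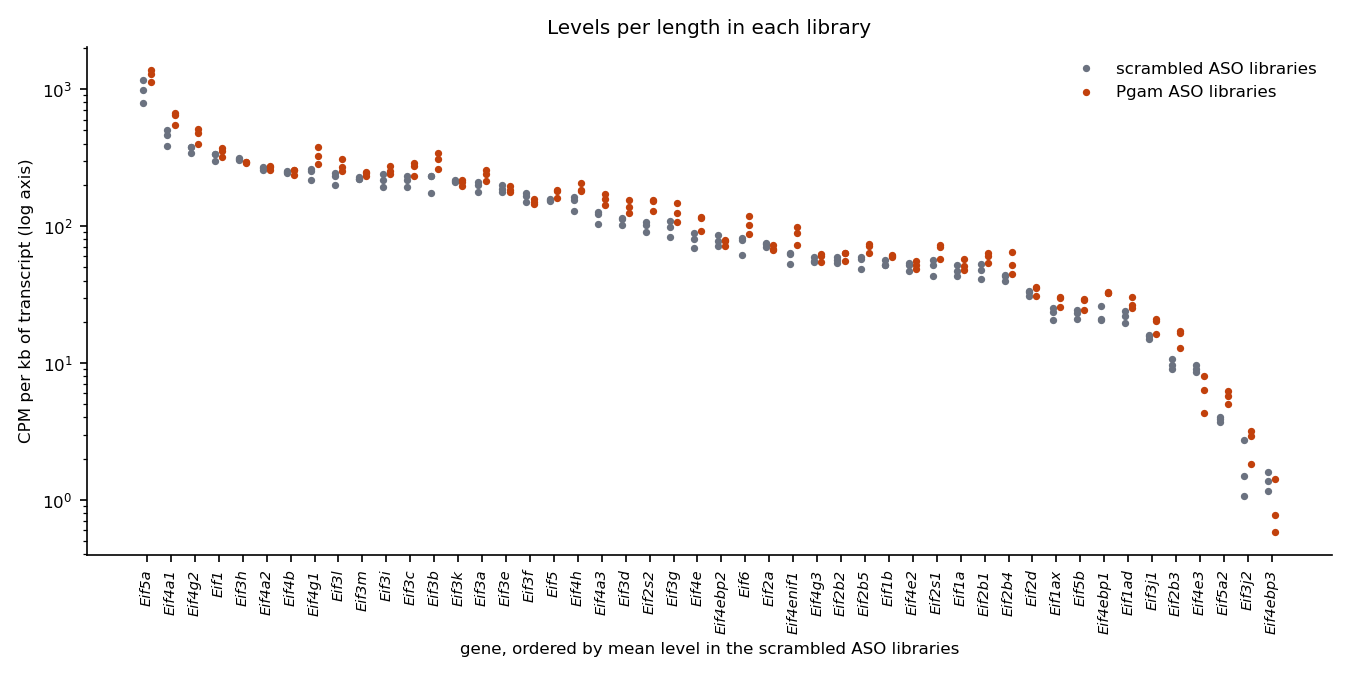
Points are CPM per kb of transcript on a log axis, 1 for each library, for the 48 members with counts, ordered by their mean in the scrambled ASO libraries. *Eif5a* and *Eif4a1* are at the left end, and *Eif4ebp3* at the right end.

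Kallisto must divide reads among genes whose transcripts share stretches of 31 bases. *Eif4a1* shared 31.1% of its stretches with other genes, mainly the pseudogene *Eif4a-ps4*, *Eif4a3* shared 31.2% and *Eif2s2* 12.4%. *Eif3j2* shared 94.9% of its stretches, nearly all with *Eif3j1*, so these copies are hardly separable. *Eif4ebp3*, with 88 counts over all libraries, shared 66.4% with *AC115631.1*, which had 379. When each member was summed with the genes sharing at least 10% of its stretches, all 16 calls were kept, and *Eif4a1* stood at 0.43 on the log2 scale, with an adjusted p of 0.0349. *Eif4e3* summed with *Gm20696* passed the test, at -0.68 with an adjusted p of 0.0493. Of the 28 members that share under 5% of their stretches, 9 were called higher, and of the 20 tested members that share more, 7 were, beside 8.03% of all tested genes, in a division chosen after the data were seen.

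Genes that act beside the initiation factors were examined as lists. Of 12 elongation and termination factors, 11 were tested, with a median log2 fold change of 0.35. edgeR called 5 of them higher, 45.5%, beside 8.03% of all tested genes. It called 0 lower, beside 9.15%, as did DESeq2, and 0 were lower at an unadjusted p under 0.05. *Etf1*, which recognises stop codons, measured 289.6, 254 and 302 CPM and 413, 381 and 321 CPM and rose by 0.40 (SE 0.11, adjusted p = 0.0349 by edgeR). Its partner *Gspt1* rose by 0.40 (SE 0.12, adjusted p = 0.0462 by edgeR), and the related *Gspt2*, with only 12, 12 and 20 counts against 36, 46 and 23, rose by 1.35 (SE 0.41, adjusted p = 0.0486 by edgeR). *Eef1d*, a subunit of the exchange complex of elongation, rose by 0.35 (adjusted p = 0.0496 by edgeR). *Eef1e1*, an elongation factor by name whose role in elongation was not examined here, rose by 0.56 (adjusted p = 0.0403 by edgeR). All 5 calls ended in each edgeR fit without scrambled ASO replicate 1 or 2 or *Pgam* ASO replicate 1 or 2. *Eef2*, the translocation factor, stood at -0.00 (adjusted p = 0.991 by edgeR). The most abundant gene of the list, *Eef1a1*, was lower in every *Pgam* ASO library, at -0.13, and was not called (adjusted p = 0.242 by edgeR). Summed, the list measured 19439, 18738 and 20285 CPM against 18985, 19205 and 18866.5 CPM, with overlapping groups.

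Of 29 regulators of initiation outside the family, all were tested, and the median was 0.14. Of these, 3 were called higher, 10.3%, and 4 lower, 13.8%, shares near the 8.03% and 9.15% of all tested genes. *Eif2ak3* encodes PERK, the kinase that phosphorylates eIF2 alpha during stress of the endoplasmic reticulum. It had 51.6, 62.5 and 48.3 CPM in the scrambled ASO libraries and 34.3, 31.9 and 35.4 CPM in the *Pgam* ASO libraries. The groups were apart, and *Eif2ak3* fell with a log2 fold change of -0.68 (SE 0.11, adjusted p = 0.00631 by edgeR). *Ppp1r15a*, which guides the phosphatase that reverses this mark, measured 26.0, 27.3 and 26.8 CPM against 18.3, 14.8 and 17.1 CPM. It likewise did not overlap and fell with a log2 fold change of -0.67 (SE 0.12, adjusted p = 0.00718 by edgeR). *Pdcd4*, an inhibitor of the eIF4A helicase, fell with a log2 fold change of -0.49 (SE 0.12, adjusted p = 0.0276 by edgeR), and *Paip2*, an inhibitor of the poly(A)-binding protein, with -0.52 (SE 0.10, adjusted p = 0.00984 by edgeR). *Dhps* and *Dohh* encode the enzymes that make hypusine on eIF5A. *Dhps* rose by 0.51 (SE 0.14, adjusted p = 0.0357 by edgeR) and *Dohh* by 0.60 (SE 0.16, adjusted p = 0.0312 by edgeR), and the helicase gene *Dhx29* rose by 0.50 (SE 0.13, adjusted p = 0.0321 by edgeR). Without scrambled ASO replicate 1 or 2 or *Pgam* ASO replicate 1 or 2, the 3 calls of higher levels ended, and without *Pgam* ASO replicate 2 the 4 calls of lower levels ended as well. In that last fit the log2 fold changes were -0.64 for *Eif2ak3*, -0.59 for *Ppp1r15a*, -0.46 for *Pdcd4* and -0.54 for *Paip2*. *Pdcd4* also lost its call without scrambled ASO replicate 1 (adjusted p = 0.0795) or 2 (0.0622), without *Pgam* ASO replicate 1 (0.0958) and with replicate number as a block (0.0604). The other eIF2 alpha kinases, *Eif2ak1*, *Eif2ak2* and *Eif2ak4*, had log2 fold changes of -0.10, 0.22 and 0.18 and were not called.

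Markers of cell types other than CD4 T cells were counted because the cells, taken by negative selection for naive CD4 cells before culture, were not sorted after it. Both CD8 markers were tested and summed to 11.2, 13.5 and 10.8 CPM and 14.6, 10.9 and 15.7 CPM, mostly *Cd8b1*, which overlapped between groups at -0.20 on the log2 scale (adjusted p = 0.454 by edgeR), while *Cd8a* was called higher at 1.12. All 6 B cell markers were tested, with sums of 329, 458 and 222 CPM and 85.3, 119.8 and 149.9 CPM. Nearly all of it was *Ighm*, the only B cell marker edgeR called, which was lower with a log2 fold change of -1.58. Myeloid markers, of which 3 of 6 were tested, summed to 8.10, 8.80 and 8.18 CPM and 6.15, 5.77 and 7.51 CPM, with *Cd68* the most abundant and not called (adjusted p = 0.0933 by edgeR). Without *Cd68*, the others summed to 2.98, 3.51 and 1.80 CPM against 2.80, 2.31 and 3.08 CPM, with overlapping groups. *Lyz2* was higher in every *Pgam* ASO library, at 0.35 on the log2 scale, and was not called (adjusted p = 0.481 by edgeR). None of the 3 NK cell markers was tested, *Klrb1c* and *Klra8* had 0 counts in every library, and *Ncr1* had at most 2 counts. The 4 mast cell and basophil markers summed to 1.07, 1.89 and 1.36 CPM and 4.10, 3.98 and 2.96 CPM, led by *Cpa3*, which alone was tested and was not called by edgeR (adjusted p = 0.0526). Erythroid markers summed to 2.70, 2.16 and 1.55 CPM and 1.55, 2.12 and 2.48 CPM, led by *Alas2*, with *Hba-a2* at 0, and neither of the tested pair was called. The part of these cells in the values of the initiation factors was not tested.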

How the data were processed

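The data are RNA-seq of 3 scrambled ASO and 3 *Pgam* ASO libraries. What the authors deposited is an estimated count from Kallisto for every Ensembl gene, not normalized, already in whole numbers. The Kallisto version and the way transcripts were summed to genes are not stated in the sources used. Of 56748 genes, 52125 were found in GENCODE M21 (GRCm38), which gave symbols, biotypes, lengths and coordinates, and IDs not found there, some of them newer, have no symbol here. *Gcn1* was matched through its synonym *Gcn1l1*.

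The comparison was fitted with edgeR 4.0.16 (R 4.3.3) by filterByExpr, TMM scaling and the two-sided robust quasi-likelihood method, with p-values adjusted by Benjamini-Hochberg over all 14936 tested genes and a threshold of 0.05. The fit had no covariate. Alternatives were DESeq2 1.42.0, limma-voom (limma 3.58.1), RLE size factors, library size alone, a replicate block, ribosomal protein and mitochondrial genes removed, every gene with a count tested, a minimum of 10 counts per library, fits leaving out 1 library, a threshold of 0.01, and members summed with genes sharing at least 10% of their stretches of 31 bases. Ratios used CPM + 0.5 (or + 0) and an exact permutation test over libraries. Levels used the mean or the longest protein-coding transcript length. A floor of 3 counts covers counting error only.

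The members and lists were chosen with earlier results of these data known. Genes named are *Pgam1*, *Pgam2*, *Foxp3*, the called members, a set of members given whatever their result, and the called genes of the other lists, and any others were named after their values were seen. The procedure was tested on simulated data, where p-values of unchanged genes were near nominal and the share of false calls at the adjusted threshold ran above its nominal value. Promoter windows are from RefSeq.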

Additional observations from a re-analysis of the deposited data

How the results depend on the processing

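The calls rest on 3 libraries a group, on a spread that was not even between libraries, and on deposited counts that divide reads among genes with shared stretches. Depth limits mainly *Eif4ebp3*, *Eif3j2* and *Eif4e1b*. Replicate numbers were not shown to pair libraries, since Pearson's r between deviations from the group mean, taken over genes, averaged -0.0725 where the numbers matched and 0.0364 elsewhere, and genes are not independent replicates.

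The 16 members called higher were 26 with every gene of at least 1 count tested, 5 with a replicate block (*Eif2s2*, *Eif2b3*, *Eif4ebp1*, *Eif4enif1* and *Eif5a2*), 0 at an adjusted p under 0.01 in edgeR (28 at an unadjusted p under 0.05), and 0 to 26 with each library left out. Over all genes, the calls in both directions were 2565, with 3732 for at least 1 count, 1235 for the replicate block and 391 to 3484 with each library left out. Called higher alone were 1199 of 14936 genes, 1832 of 28512 for at least 1 count and 480 of 14936 for the replicate block. With each library left out, the share of all genes called higher ran from 1.03% to 11.0%. The share of all genes at an adjusted p under 0.01 is not given here. Across the other tools, scalings and filters and the summing of sharing genes, 14 of the 16 members kept the call in all 8 settings, *Eif2s1* in 7 and *Eif2b5* in 5. Members called lower were 1 in DESeq2, 1 with at least 1 count, and 0 to 1 with each library left out.

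Alternatives for the targeted genes and the other translation genes were chosen after seeing the data. *Pgam2* stood at -0.83 on the log2 scale (adjusted p = 0.0292 by edgeR) with at least 1 count, and -1.11 to -0.56 with each library left out, while its adjusted p ran from 0.0144 to 0.286 over all alternatives. Elongation and termination factors called higher, 5, were 0 with the replicate block and 0 to 7 with each library left out. Regulators called higher, 3, were 5 in DESeq2, 0 with the replicate block and 0 to 9 with each library left out, and the 4 called lower were 0 to 4. Beside both lists, all genes called higher were 10.3% in DESeq2, 480 of 14936 with the replicate block and 1.03% to 11.0% with each library left out. All genes called lower were 755 of 14936 with the replicate block and 231 to 1773 genes with each library left out.

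With each library left out, the difference in *Eif5a* over *Eif5a2* ran from -0.32 to 0.02, that in *Eif4e* over *Eif4ebp1* from -0.16 to 0.02 and that in *Eif2b1* over *Eif2s1* from -0.11 to -0.04. The median level of members was 78.6 CPM per kb with mean transcript lengths and 53.5 with the longest transcript, which follows from the longer length. The cause of the other shifts was not tested.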

Other observations

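The labels do not give the sex of the animals, mice of both sexes are listed for the strain without word on which were used here, and transcripts of both sexes were counted in every library. *Xist*, the RNA of the inactive X chromosome, measured 46.0, 56.8 and 45.4 CPM in the scrambled ASO libraries and 77.0, 87.5 and 105 CPM in the *Pgam* ASO libraries, higher in each, with a log2 fold change of 0.86 (SE 0.13, adjusted p = 0.00391 by edgeR). *Eif2s3y*, the Y-linked copy of the eIF2 gamma subunit gene that was left out of the members, measured 110.0, 112 and 107 CPM against 93.8, 106 and 103 CPM, with a log2 fold change of -0.12 (SE 0.08, adjusted p = 0.328 by edgeR). Of the other Y-linked genes examined, *Kdm5d* was called lower at -0.55 on the log2 scale (adjusted p = 0.0223 by edgeR), and *Ddx3y* at -0.27 (0.0803) and *Uty* at -0.45 (0.0592) were not called. All 4 Y-linked genes were lower in every *Pgam* ASO library than in any scrambled ASO library, beside 19.8% of all tested genes. The part of the mix of male and female cells in the values of the initiation factors was not tested.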
